A study of Mus musculus with 6 samples.

Results

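The cells described here are CD8 T cells from mouse melanoma that carried Havcr2 RNA, had no Tcf7 RNA detected, and had at most 1 UMI of granzymes C to F and at most 1 of the proliferation genes Mki67 and Top2a. A UMI (unique molecular identifier) marks 1 captured RNA molecule. The rule selected 406 of 52390 kept cells over 6 tumour libraries. The cells were selected on measured values: at least 1 UMI of Cd3d, Cd3e or Cd3g, at least 1 of Cd8a or Cd8b1, at least 1 of Havcr2, none of Tcf7, Foxp3, Ncr1, Siglech or the C1q genes, and at most 1 of Mki67 and Top2a together. Levels of these 19 genes in the selected cells are therefore descriptions, and no test is given for them. Below they are called Havcr2+ cells. Dividing means 2 or more UMIs of Mki67 and Top2a here, and 111 of the 406 Havcr2+ cells had 1.

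Havcr2 encodes TIM-3, an inhibitory receptor that marks CD8 T cells late in chronic stimulation. In tumours and chronic infection, CD8 T cells that keep meeting antigen acquire inhibitory receptors such as PD-1 (Pdcd1), LAG-3 (Lag3) and TIM-3 and the transcription factor TOX. This state is called exhaustion. A less differentiated state that keeps the transcription factor TCF-1 (Tcf7) can renew itself and give rise to TIM-3-positive cells. In GRCm38, the mouse build the files use, Havcr2 spans positions 46454935 to 46481255 of chromosome 11 on the plus strand.

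Each male C57Bl/6 mouse, aged 6 to 8 weeks, received 600000 cells of YUMMER1.7, a melanoma line of mouse origin, under the skin. The exercise group (libraries 5, 6 and 8) ran at 12 m/min for 45 minutes a day on 14 days, starting once tumours were established and mice had been assigned at random, and the other mice were labelled sedentary (libraries 1, 2 and 3). Whole tumours were dissociated without sorting and measured with 10x Genomics 3' version 3 chemistry, so the CD8 T cells come with tumour, myeloid and stromal cells in the same library. All mice carried the same cell line, a transplanted model grown in a skin site. The labels do not say how many tumours went into a library, so p-values of exercise against sedentary measure the spread between libraries. Where groups of cells from the same libraries are compared, p-values measure how the difference within a library varies across libraries.

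Libraries held 97426009 to 131778565 UMIs, and the kept cells had a median of 5967 to 12513.5 UMIs per library. Havcr2+ cells were shallower, with a median of 2638 to 3371 UMIs and 75913 to 424321 UMIs in all per library. Of 57964 distinct barcodes, 384 occurred in more than 1 library. Among Havcr2+ cells 0 barcodes recurred, and 7 also occurred in another library among other cells. In most results below, UMIs were summed per library and gate and scaled to CPM, which sets each gene relative to the UMIs of that same sum. In these bulk-like sums, fewer cells with a gene and less RNA of it per cell cannot be told apart. A CPM compares the make-up of the RNA of a gate and not its amount per cell.

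Havcr2 itself stood at 535.0, 487.1 and 456.2 CPM in Havcr2+ cells of exercise libraries 5, 6 and 8 and at 376.3, 422.0 and 447.9 CPM in those of sedentary libraries 1, 2 and 3. Most cells passed the rule on a single molecule: 283 cells had 1 Havcr2 UMI and 123 had 2 or more. Pooled over libraries, the level was 463.2 CPM in the selected cells, 229.0 CPM in CD8 T cells with 2 or more UMIs of granzymes C to F, 82.8 CPM in dividing CD8 T cells and 79.3 CPM in Foxp3 T cells. Outside T cells, it was 124.9 CPM in cells with Xcr1 or Clec9a, markers of the dendritic cells that cross-present antigen, and 45.9 CPM in C1q macrophages. NK-gated cells had 8.81 CPM and tumour-like cells 1.18 CPM. After each cell was thinned to 2000 UMIs, 67.4% of 307 Havcr2+ cells still had a Havcr2 UMI, as did 28.3% of the Xcr1 or Clec9a cells, 10.7% of macrophages and 0.377% of tumour-like cells.

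The CD8 T cells that were gated alongside serve as comparators. Of 2507 gated CD8 T cells, 746 were dividing. The 1761 others comprised the 406 Havcr2+ cells, 95 cells with Tcf7 and without Havcr2 (Tcf7+ cells), 118 with 2 or more UMIs of granzymes C to F, of which 56 had Havcr2 and met every other rule for Havcr2+ cells, 1132 with neither Havcr2 nor Tcf7 (double-negative cells) and 10 with both. A gene with a single captured molecule is easily missed in a shallow cell, so double-negative cells can include cells that transcribe either gene. Their median depth was 1708 to 2741 UMIs per library, below that of the Havcr2+ cells.

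The label of exhausted-like cells was checked on inhibitory receptors that the rule did not use. Pdcd1, the PD-1 gene, stood at 334.7, 327.2 and 261.5 CPM in Havcr2+ cells of exercise libraries 5, 6 and 8 and at 333.0, 211.0 and 263.5 CPM in those of sedentary libraries 1, 2 and 3. Lag3, whose protein binds MHC class II, stood at 313.4, 365.3 and 255.5 CPM in the exercise libraries and at 333.0, 355.3 and 210.8 CPM in the sedentary ones. Both receptors were present in all 6 libraries and the groups overlapped. Tox, the transcription factor needed to sustain the exhausted state, averaged 263.4 ± 42.4 CPM (SD, n = 6). Entpd1, which encodes the ectonucleotidase CD39, stood at 86.7 ± 16.6 CPM, and Ctla4, a receptor that competes with CD28, at 53.6 ± 32.8 CPM (SD, n = 6 each). Tigit was close to the limit of detection, with 23 UMIs in 1297432.

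Per cell, the receptors were patchy. At 2000 UMIs, 40.1% of Havcr2+ cells had a Pdcd1 UMI (Wilson 95% interval 34.7 to 45.6%), 41.0% had Lag3, 13.7% Entpd1, 11.7% Ctla4 and 2.93% Tigit. Pdcd1 was seen in 34.1% of double-negative cells (30.5 to 37.9%) and 32.9% of granzyme C to F cells (23.7 to 43.7%). Lag3 was seen in 30.2% of double-negative cells and 42.7% of granzyme C to F cells. Without thinning, the shares of Havcr2+ cells were 54.4% for Pdcd1, 55.4% for Lag3 and 5.67% for Tigit. Of 2390 tumour-like cells thinned likewise, 0 had a Pdcd1 UMI, which allows a share of cells with a UMI at this depth of up to 0.126% and sets no limit on cells that express the gene, and 2 had Lag3. Those tumour-like cells had medians of 21198 to 31344 UMIs before thinning. At least 2 of Pdcd1, Lag3, Tigit, Ctla4 and Entpd1 were detected together in 32.6% of Havcr2+ cells (27.6 to 38.0%), in 30.5% of granzyme C to F cells (21.6 to 41.1%), in 21.5% of double-negative cells (18.4 to 24.9%) and in 6.85% of Tcf7+ cells (2.96 to 15.1%). The intervals of the Havcr2+ and granzyme C to F cells overlap. All these intervals cover counting error only. Thinning used the 307 of 406 Havcr2+, 82 of 118 granzyme C to F, 619 of 1132 double-negative and 73 of 95 Tcf7+ cells that were deep enough.

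**Figure D1:**
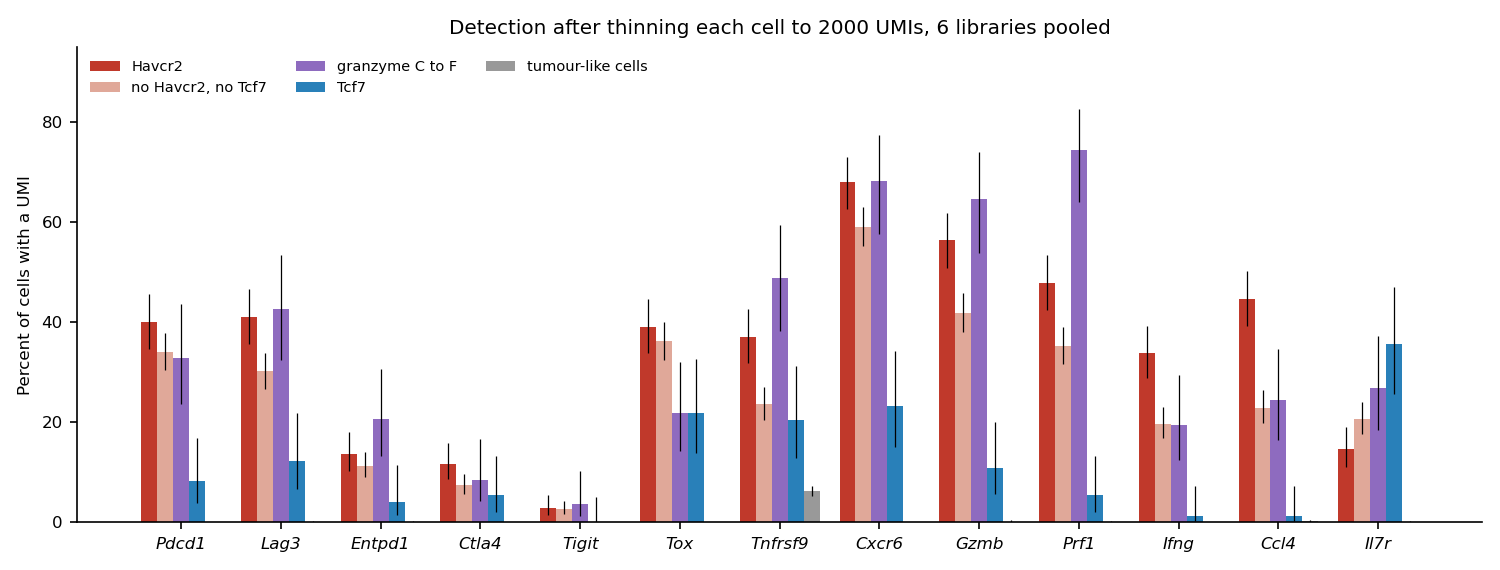
Share of cells with at least 1 UMI of each gene (y axis, percent) after thinning to 2000 UMIs, for Havcr2+ cells, double-negative cells (no Havcr2, no Tcf7), granzyme C to F cells, Tcf7+ cells and tumour-like cells, with 6 libraries pooled; error bars are Wilson 95% intervals. Havcr2+ cells have Pdcd1 in 40.1% and Ccl4 in 44.6%, against 8.22% and 1.37% of Tcf7+ cells, while Il7r runs the other way at 14.7% and 35.6%. Double-negative cells have Pdcd1 in 34.1% and Ccl4 in 22.9%, and granzyme C to F cells have them in 32.9% and 24.4%.

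Set against Tcf7+ cells of the same libraries, Havcr2+ cells had more RNA of the cytokine genes Ccl4 and Ifng, the granule genes Gzmb and Prf1 and the receptor genes Lag3 and Pdcd1. Of 1791 genes tested, 257 were higher in Havcr2+ cells (14.3%) and 260 were lower (14.5%) at an adjusted p under 0.05, by edgeR's quasi-likelihood test with the library as a block and Benjamini-Hochberg adjustment. The Tcf7+ sums are dominated by few cells. Only 15 of 95 Tcf7+ cells had over 10000 UMIs, but they held 60.1% of that gate's UMIs, against 3.90% from 4 such cells among the Havcr2+ cells. For that reason values are also given without cells over 10000 UMIs, a setting chosen after the data were seen, in which 765 genes were tested, 77 were higher (10.1%) and 88 lower (11.5%).

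Ccl4, which encodes an inflammatory chemokine, stood at 3229, 3067 and 693.4 CPM in Havcr2+ cells of exercise libraries 5, 6 and 8 and at 1038, 1022 and 421.5 CPM in those of sedentary libraries 1, 2 and 3. In Tcf7+ cells it stood at 20.5, 0 and 7.14 CPM in the exercise libraries and 8.68, 39.2 and 0 CPM in the sedentary ones, a total of 9 UMIs. Every library's Havcr2+ cells lay above every library's Tcf7+ cells (log2 fold change 6.33, SE 0.34, edgeR adjusted p = 1.2e-09; 6.09 without cells over 10000 UMIs). Ifng, the interferon gamma gene, averaged 509.0 ± 412 CPM in Havcr2+ cells and 6.59 ± 8.55 CPM in Tcf7+ cells (SD, n = 6; log2 fold change 5.37, SE 0.43, edgeR adjusted p = 1.11e-07; 4.20 without cells over 10000 UMIs). Ccl5, at 4054 ± 1430 CPM in Havcr2+ cells and 1372 ± 1230 CPM in Tcf7+ cells (SD, n = 6), was higher by a log2 fold change of 1.70 (SE 0.22), and by 0.66 without cells over 10000 UMIs. Of the 6 genes tested on a list of cytokines and chemokines, 4 were higher (Ccl4, Ifng, Ccl5 and Csf1) and 1 was lower. The lower gene was Spp1, which encodes osteopontin, a secreted matrix protein. The median log2 fold change of all 1791 genes was -0.01. The list has 20 genes, and those with few UMIs did not enter the test. A gene scarce in Tcf7+ cells could enter only through the Havcr2+ sums, so the counts of this and the following lists against Tcf7+ cells do not describe whole lists.

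Among cytotoxic granule genes, Gzmb and Prf1 were higher. Gzmb, the granzyme B gene, had its lowest level in Havcr2+ cells at 588.2 CPM, its median at 776.7 and its highest at 921.7. In Tcf7+ cells the lowest was 0, the median 48.9 and the highest 87.8 CPM, so the gates did not overlap (log2 fold change 3.74, SE 0.28, edgeR adjusted p = 4.96e-08; 3.16 without cells over 10000 UMIs). Prf1, which encodes the pore-forming protein perforin, stood at 476.6 ± 179 CPM in Havcr2+ cells and 32.6 ± 37.9 CPM in Tcf7+ cells (SD, n = 6; log2 fold change 3.66, SE 0.38, edgeR adjusted p = 1.64e-06; 3.21 without cells over 10000 UMIs). Nkg7, a granule membrane gene, was higher by a log2 fold change of 1.95, and by 1.05 without cells over 10000 UMIs. Of 12 granule genes tested, out of 20, 9 were higher and 2 lower. The 2 lower genes were Ctsb, which encodes the lysosomal protease cathepsin B, and Lamp1, which encodes a lysosomal membrane protein, and both are made by many cell types.

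Of 19 inhibitory receptor genes in the files, 6 entered the test and were higher (Lag3, Pdcd1, Klre1, Klrc1, Cd160 and Cd96). Their levels in Tcf7+ cells rest on few molecules, such as 0 to 14 Pdcd1 UMIs and 0 to 12 Lag3 UMIs per library. Pdcd1 averaged 288.5 ± 50.9 CPM in Havcr2+ cells and 35.8 ± 49.6 CPM in Tcf7+ cells (SD, n = 6; log2 fold change 2.88, SE 0.44, edgeR adjusted p = 7.23e-05), and 1.84 without cells over 10000 UMIs. Lag3 was higher by 2.49 (SE 0.33), or 1.69 without those cells, and both calls held there. Of 11 transcription factor genes tested, out of 22, 9 were higher and 0 lower. Among them were Irf8, an interferon regulatory factor (2.61), Id2, an inhibitor of E proteins that favours effector fate (1.90), and Tox (1.82, SE 0.30, edgeR adjusted p = 0.000162). Without the large cells Irf8 stood at 2.09, Id2 at 0.99 and Tox at 0.83 (edgeR adjusted p = 0.0487 for Tox). In that setting 4 of the 7 transcription factor genes tested were higher and 1, Ikzf2, was lower. Of 4 inhibitory receptor genes tested there, 3 were higher (Lag3, Pdcd1 and Klrc1). Cd160 was not among these 3, with means of 180.6 ± 46.6 CPM in Havcr2+ cells and 167.0 ± 84.6 CPM in Tcf7+ cells (SD, n = 6).

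Homing and residency genes went both ways with all cells. Of 12 tested, 6 were higher and 2 lower, and the summed level of all 22 overlapped, at 2748 ± 387 CPM in Havcr2+ cells and 2181 ± 384 CPM in Tcf7+ cells (SD, n = 6 each). Cd9, which encodes a tetraspanin of many cell types, fell by 2.72 on the log2 scale (edgeR adjusted p = 6.78e-07) in 6 of 6 libraries. Without cells over 10000 UMIs Cd9 did not enter the test and had 19 UMIs in Tcf7+ cells. There it was lower in Havcr2+ than in Tcf7+ cells of the exercise libraries. In sedentary libraries 1, 2 and 3 it was higher, at 56.6, 55.5 and 45.6 CPM against 17.3, 35.7 and 0 CPM. Cxcr6, a chemokine receptor of tissue-resident T cells, stood at 556.8 ± 133 CPM in Havcr2+ cells and 138.6 ± 115 CPM in Tcf7+ cells (SD, n = 6; log2 fold change 1.92, SE 0.26, edgeR adjusted p = 1.98e-05; 0.98 without cells over 10000 UMIs). Of 9 costimulatory receptor genes tested, 8 were higher and 0 lower. They included Klrk1, which encodes the activating receptor NKG2D (1.88), Tnfrsf4, which encodes OX40 (2.12), and Tnfrsf9, which encodes 4-1BB (1.10, SE 0.40, edgeR adjusted p = 0.0476). Tnfrsf9 was higher in 5 of 6 libraries, the exception being sedentary 2, where Tcf7+ cells had 502.4 CPM against 325.7 CPM in Havcr2+ cells. Of 12 T cell receptor signalling genes, 6 were higher and 0 lower, led by Sh2d2a, an adaptor gene (2.11), and Zap70, the kinase at the receptor (1.97). Without the large cells, 1 of the 4 signalling genes tested passed, Sh2d2a (1.35), as did 2 of 4 costimulatory receptor genes, Tnfrsf9 (1.32) and Klrk1 (1.05). Of 4 cell cycle genes tested with all cells, 2 were higher, Stmn1 (2.17), which encodes the microtubule regulator stathmin, and Hmgb2, which encodes a chromatin protein. Without the large cells Hmgb2 stood at 0.69 (edgeR adjusted p = 0.0725).

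**Figure D2:**
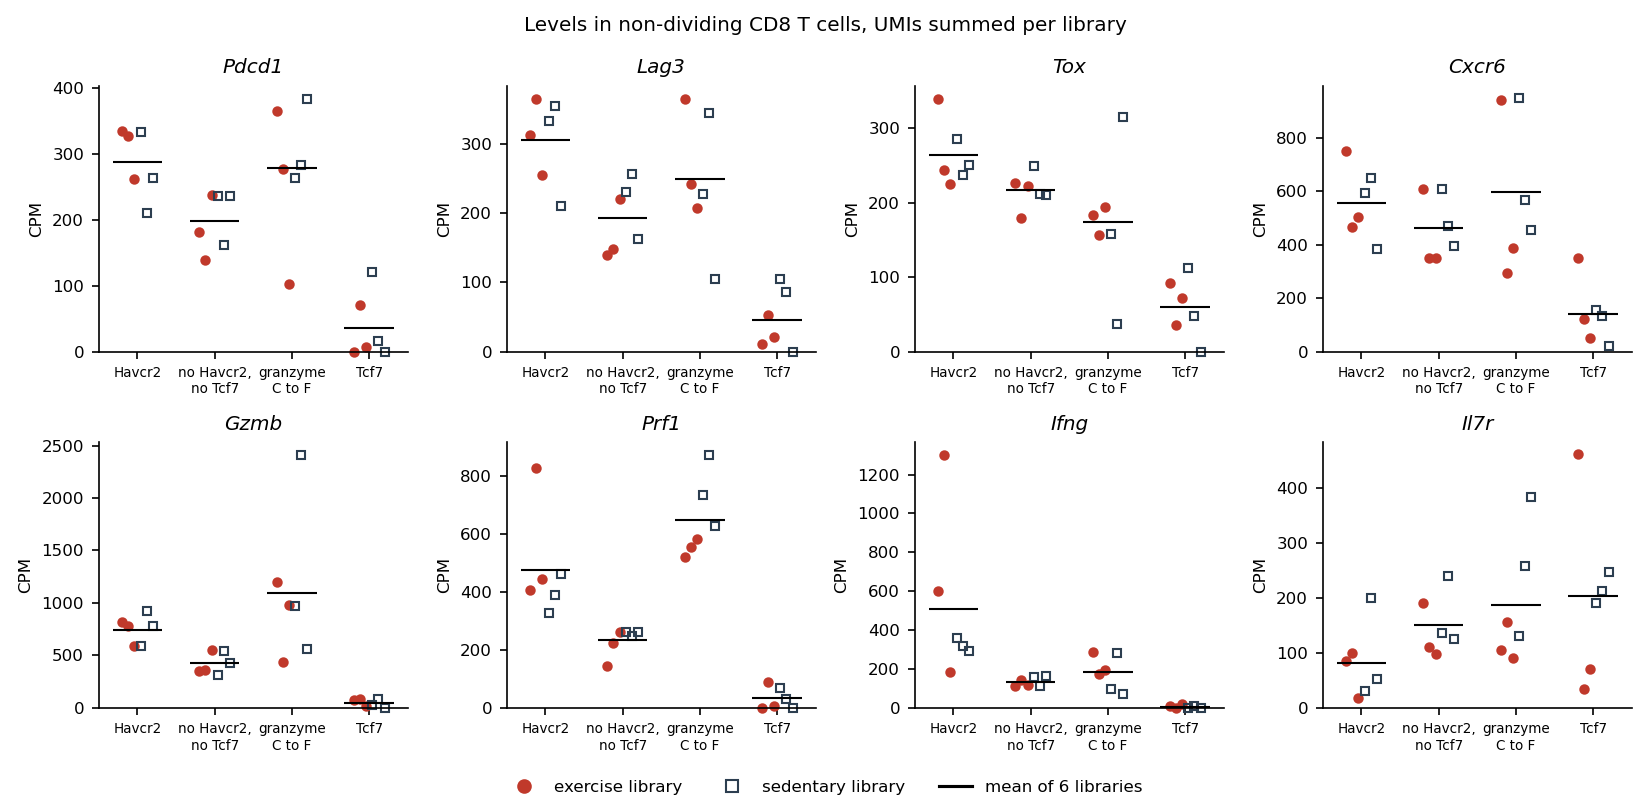
Level of 8 genes (y axes, CPM of the UMIs summed per library) in Havcr2+ cells, double-negative cells, granzyme C to F cells and Tcf7+ cells; each point is a library and the line is the mean of 6. Pdcd1, Lag3, Gzmb and Prf1 lie lower in Tcf7+ cells than in Havcr2+ cells of every library, and Havcr2+ and granzyme C to F cells overlap in Pdcd1, Lag3 and Cxcr6.

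On the lower side, the gene list changed with the large cells. With all cells, the 10 genes with the smallest p were Ctsl, Fn1, Mt1, Col18a1, Nupr1, Spp1, Cd63, Sdc4, Jun and Vim, among them genes of matrix proteins (Fn1, Col18a1), lysosomal proteins (Ctsl, Cd63) and the intermediate filament vimentin (Vim). Fn1, the fibronectin gene, averaged 258.5 ± 109 CPM in Havcr2+ cells and 1412 ± 857 CPM in Tcf7+ cells (SD, n = 6; log2 fold change -2.50, SE 0.17). Without cells over 10000 UMIs it averaged 193.4 ± 75.5 CPM in Havcr2+ cells and 238.7 ± 113 CPM in Tcf7+ cells (SD, n = 6; log2 fold change -0.57, edgeR adjusted p = 0.17). The metallothionein gene Mt1 fell by 2.68 on the log2 scale with all cells and stood at -0.15 without the large ones. The summed level of 12 tumour-like marker genes ran from 952.1 to 2108 CPM in Havcr2+ cells and from 3137 to 5618 CPM in Tcf7+ cells. Without the large cells its mean was 1164 ± 211 CPM in Havcr2+ cells and 1279 ± 907 CPM in Tcf7+ cells (SD, n = 6 each). All 12 of these markers had UMIs in Havcr2+ cells, and their part in the result beyond these values was not tested.

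Il7r, the gene of the interleukin 7 receptor, which supports memory cells, stood at 80.3 ± 66.0 CPM in Havcr2+ cells and 405.2 ± 203 CPM in Tcf7+ cells without the large cells (SD, n = 6; log2 fold change -2.51, edgeR adjusted p = 1.9e-05). With all cells the log2 fold change was -1.54 (SE 0.39, edgeR adjusted p = 0.00595), lower in 5 of 6 libraries. Of 8 naive and stem-like genes tested with all cells, 3 were lower (Id3, Il7r and Foxp1) and 1, Cd27, was higher (0.83, edgeR adjusted p = 0.0203). Without the large cells, 5 were tested and 4 were lower (Il7r, Ly6c2, Ltb and Bcl2). Cd27 did not enter that test. Its mean there was lower in Havcr2+ cells, at 143.9 ± 28.4 CPM against 182.8 ± 68.2 CPM in Tcf7+ cells (SD, n = 6 each). Of 79 cytosolic ribosomal protein genes tested, a group singled out after its values were seen, 59 were lower without the large cells and 33 with all cells. Their summed level without the large cells was 286400 ± 4420 CPM in Havcr2+ cells and 360300 ± 35500 CPM in Tcf7+ cells (SD, n = 6 each). Glycolysis genes differed by setting too. Of 10 tested, 2 were higher and 2 lower with all cells, and 5 were higher and 0 lower without the large cells. Gapdh was higher in both, by 0.39 and 1.02.

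**Figure D3:**
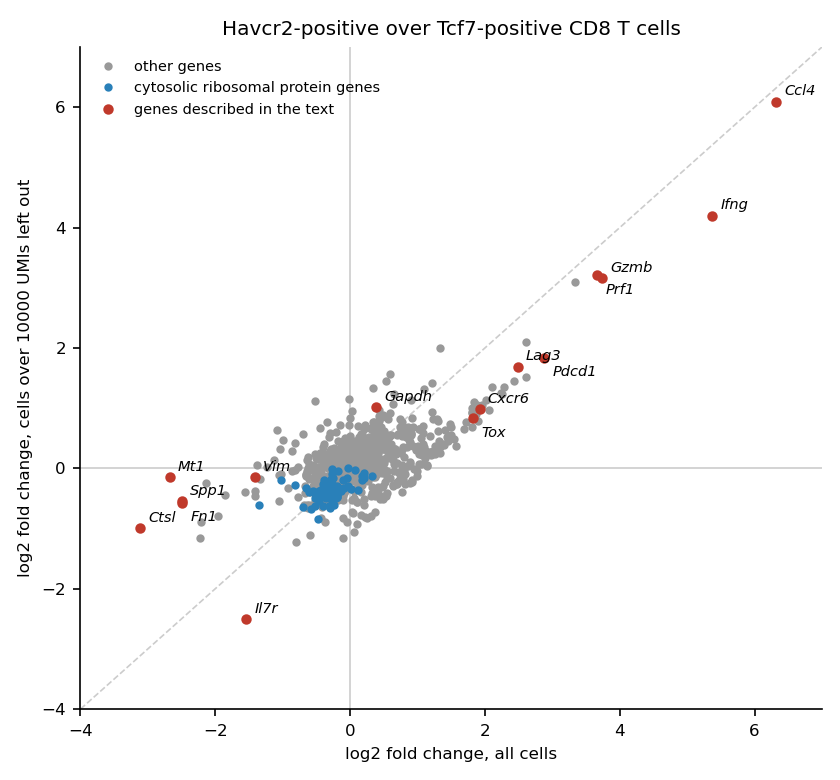
Log2 fold change of Havcr2+ over Tcf7+ cells for the 765 genes tested in both settings, with all cells (x axis) and with cells over 10000 UMIs left out (y axis); the dashed line marks equal values. Ccl4 (6.33 and 6.09) lies near the line, Ifng (5.37 and 4.20) and Pdcd1 (2.88 and 1.84) lie below it but above 0, Mt1 (-2.68 and -0.15) lies near 0 on the y axis, and ribosomal protein genes lie mostly below 0 on both axes.

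Of the 765 genes tested in both settings, 164 were called higher with all cells, and 60 of these were called higher again without the large cells. Of 95 called lower, 37 were called lower again, 28 of them ribosomal protein genes. Setting Havcr2 at 2 or more UMIs gave 330 calls in all, leaving out cells with 2 or more UMIs of other cell types' genes gave 214, and thinning to 2000 UMIs gave 129.

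A comparison with double-negative cells, added after the data were seen, placed the Havcr2+ cells against the largest group of non-dividing CD8 T cells. Of 3992 genes tested, 91 were higher (2.28%) and 216 lower (5.41%) in Havcr2+ cells. Without cells over 10000 UMIs, which held 19.2% of the double-negative UMIs, 3409 were tested, 32 were higher (0.939%) and 36 lower (1.06%). Ifng rose by 1.79 (SE 0.22, edgeR adjusted p = 9.5e-06), with 509.0 ± 412 CPM in Havcr2+ and 134.7 ± 23.3 CPM in double-negative cells (SD, n = 6), higher in 6 of 6 libraries. Ccl4 rose by 1.87 (SE 0.24), and Ccl3, the gene of a related chemokine, by 1.70 (SE 0.30). Gzmb was higher by 0.80, Prf1 by 0.97 and Tnfrsf9 by 0.90. All 6 genes passed again without the large cells, and Ccl3 and Tnfrsf9 were higher in 5 of 6 libraries.

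Among inhibitory receptors, Lag3 and Pdcd1 passed against double-negative cells as well. Lag3 averaged 305.6 ± 60.6 CPM in Havcr2+ cells and 192.8 ± 49.0 CPM in double-negative cells (SD, n = 6; log2 fold change 0.67, SE 0.14, edgeR adjusted p = 0.00231). Pdcd1 averaged 288.5 ± 50.9 CPM in Havcr2+ cells and 199.1 ± 43.5 CPM in double-negative cells (SD, n = 6; log2 fold change 0.53, SE 0.13, edgeR adjusted p = 0.0131). Without the large cells Lag3 still passed (edgeR adjusted p = 0.046) and Pdcd1 did not (0.31, edgeR adjusted p = 0.31). Tox stood at 263.4 ± 42.4 CPM in Havcr2+ cells and 216.4 ± 22.9 CPM in double-negative cells and did not pass (log2 fold change 0.26, edgeR adjusted p = 0.222), nor did Entpd1 (0.55), Ctla4 (0.45) or Cxcr6 (0.24). Of 11 inhibitory receptor genes tested, 3 were higher and 0 lower. Of 12 cell cycle genes tested, 4 were higher and 0 lower: Rrm1 (1.05), Mcm5 (1.05), Mcm3 (0.73) and Stmn1 (0.58), and of these Rrm1 passed without the large cells. On the lower side, Il7r fell by 0.99 (SE 0.22, edgeR adjusted p = 0.00452) in 6 of 6 libraries. Of 18 type I interferon response genes tested, 3 were lower (Ifit3, Xaf1 and Rtp4) and 1 was higher (Ifi27l2a). The 3 lower ones passed again without the large cells, where Ifi27l2a stood at 0.03. Leaving out exercise 5, which holds the most Havcr2+ cells, reduced the calls to 179, and thinning reduced them to 40.

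Against CD8 T cells with 2 or more UMIs of granzymes C to F, granzymes of activated mouse cytotoxic cells, chemokine genes were higher in Havcr2+ cells and inhibitory receptor genes did not pass. Of 1375 genes tested, 9 were higher (0.655%) and 10 lower (0.727%) in Havcr2+ cells. Of 6 cytokine and chemokine genes tested, out of 20, 4 were higher (Ccl5, Ccl3, Ccl4 and Ifng) and 0 lower. A gene scarce in granzyme C to F cells could enter only through the Havcr2+ sums. Counts of lists against granzyme C to F cells therefore do not describe whole lists. Ccl5 averaged 4054 ± 1430 CPM in Havcr2+ cells and 2000 ± 2320 CPM in granzyme C to F cells (SD, n = 6; log2 fold change 1.31, SE 0.22, edgeR adjusted p = 0.00375), higher in 6 of 6 libraries. Ccl4 was higher by 1.96 (SE 0.40, edgeR adjusted p = 0.0164) and Ifng by 1.21 (SE 0.30, edgeR adjusted p = 0.0479), each in 5 of 6 libraries, and Ccl3 by 1.66. Ifi27l2a, an interferon-inducible gene, stood at 1987 ± 455 CPM in Havcr2+ cells and 712.8 ± 280 CPM in granzyme C to F cells (SD, n = 6; log2 fold change 1.49, SE 0.19, edgeR adjusted p = 0.000229). Trgv2, a T cell receptor gamma gene, was higher by 1.70 (SE 0.31, edgeR adjusted p = 0.00563), and Bcl2, the survival gene, by 1.18. Neutrophil RNA was uneven in the comparator. The 6 neutrophil markers summed to 8089 CPM in granzyme C to F cells of exercise 5 and 1845 CPM in those of sedentary 2, and to 0 to 26.3 CPM in the other libraries, against 0 to 37.0 CPM in Havcr2+ cells. Without cells with 2 or more UMIs of other cell types' genes, S100a8 included, 20 genes were called in all.

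Lower in Havcr2+ than in granzyme C to F cells were Ifitm1, which encodes a membrane protein that restricts viruses, Tnfrsf4 and Serpinb9, which encodes an inhibitor of granzyme B. Ifitm1 averaged 161.2 ± 173 CPM in Havcr2+ cells and 638.5 ± 395 CPM in granzyme C to F cells (SD, n = 6; log2 fold change -2.01, SE 0.27, edgeR adjusted p = 0.000259). Tnfrsf4 fell by 1.15 and Serpinb9 by 1.38, both in 6 of 6 libraries. Gzmb stood at 746.0 ± 133 CPM in Havcr2+ cells and 1093 ± 706 CPM in granzyme C to F cells and did not pass (log2 fold change -0.54, edgeR adjusted p = 0.325), and neither did Prf1 (-0.58). Without cells over 10000 UMIs both did (edgeR adjusted p = 0.0336 and 0.0292). Of 6 inhibitory receptor genes tested, 0 passed in either direction. Pdcd1 differed by 0.08 (SE 0.21) and Lag3 by 0.25 (SE 0.18), and Tox, at 0.71 (SE 0.25), did not pass (edgeR adjusted p = 0.283). Without the library block 3 genes were called in all, and without exercise 5, exercise 8 or sedentary 1 the number was 10, 8 or 9.

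Levels on either side of each threshold are given as pooled values without a test. The thresholds lie on genes that chose the cells, and the levels are of other genes. The classes differed in depth, with median UMIs of 3065 at 2 or more Havcr2 UMIs, 2815 at 1 and 2146 in double-negative cells, and exercise 5 gave 51 of the 123 cells with 2 or more. No trend with Havcr2 is read from them. Cells with 2 or more Havcr2 UMIs had 332.0 CPM of Tox, 912.9 of Gzmb, 700.8 of Ccl3 and 64.5 of Il7r. Cells with 1 UMI, just inside the threshold, had 252.4 CPM of Tox, 690.1 of Gzmb, 453.9 of Ccl3 and 103.1 of Il7r. Double-negative cells, just outside, had 220.4, 411.2, 135.6 and 167.1 CPM of these genes. Pdcd1 stood at 285.9 CPM at 2 or more Havcr2 UMIs, at 298.7 CPM at 1 and at 192.0 CPM in double-negative cells. At the limit on granzymes C to F, 28 selected cells with 1 UMI had 814.9 CPM of Gzmb, and the 9 cells just outside, with 2 UMIs, had 1140 CPM. At the limit on Mki67 and Top2a, 111 selected cells with 1 UMI had 291.0 CPM of Pdcd1, against 160.4 CPM in the 52 cells with 2 UMIs just outside.

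RNA of other cell types was present in Havcr2+ cells. Macrophage markers summed to 473.4 ± 226 CPM in Havcr2+ cells and 127.4 ± 43.2 CPM in Tcf7+ cells, and dendritic and antigen-presenting markers to 1186 ± 866 CPM in Havcr2+ cells and 489.7 ± 97.0 CPM in Tcf7+ cells (SD, n = 6 each). In the same order, CD4 and gamma delta T markers summed to 87.3 ± 16.4 and 23.5 ± 19.4 CPM. Natural killer markers summed to 358.0 ± 146 and 214.0 ± 90.1 CPM. Fibroblast and endothelial markers went the other way, at 385.6 ± 153 and 1580 ± 535 CPM, as did the tumour-like markers given above. Against Tcf7+ cells, Cd74, the MHC class II invariant chain gene, was higher by 2.31 (edgeR adjusted p = 0.00322) and Ctss by 0.77 (edgeR adjusted p = 0.0287), each in 6 of 6 libraries. Without cells over 10000 UMIs Ctss stood at -0.39. Cd74 did not enter that test. Its means there were 329.7 ± 285 CPM in Havcr2+ cells and 80.1 ± 62.6 CPM in Tcf7+ cells (SD, n = 6 each). In exercise 8 and sedentary 1 it was lower in Havcr2+ cells, at 143.4 and 99.1 CPM against 156.8 and 138.4 CPM. Against double-negative cells, Lyz2 was higher by 1.02 (edgeR adjusted p = 0.0369) in 5 of 6 libraries. It stood at 0.80 (edgeR adjusted p = 0.146) without cells over 10000 UMIs. The part of this RNA in the other results was not tested beyond leaving such cells out. The summed level of 12 dendritic and antigen-presenting markers ranged from 431.3 to 2473 CPM in exercise libraries and from 428.1 to 1688 CPM in sedentary ones. Its most abundant genes were Cst3 and Cd74, and Flt3, Zbtb46, Xcr1, Clec9a, Cd209a and Ccl22 were at 0. The 12 macrophage markers summed to 233.3 to 624.0 CPM in exercise and 272.5 to 803.2 CPM in sedentary libraries. Their most abundant gene, Lyz2, had 33, 29 and 7 UMIs in Havcr2+ cells of exercise libraries 5, 6 and 8 and 10, 113 and 19 UMIs in those of sedentary libraries 1, 2 and 3. The B cell genes Cd79a, Cd79b, Ms4a1 and Pax5 were at 0. Cells with 2 or more UMIs of Lyz2, Csf1r, Cd79a, Cspg4, S100a8 and Col1a1 together numbered 6, 2 and 2 in exercise and 1, 3 and 2 in sedentary libraries. Without such cells, 0 genes were called between exercise and sedentary libraries.

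The share of Havcr2+ cells did not pass the test between exercise and sedentary tumours. They made up 1.74, 0.516 and 0.516% of kept cells in exercise libraries 5, 6 and 8, and 0.744, 1.08 and 0.273% in sedentary libraries 1, 2 and 3. Exercise 5 was the highest, and the others overlapped. The means were 0.923 ± 0.705% in exercise and 0.700 ± 0.407% in sedentary libraries (SD, n = 3 each; exact two-sided permutation p = 0.7, where 0.1 is the smallest p that 3 against 3 allows). Without exercise 5 the difference turned to -0.18 percentage points. As a share of gated CD8 T cells, they made up 16.9, 15.3 and 13.9% in exercise and 15.4, 18.3 and 15.7% in sedentary libraries (means 15.4 ± 1.52% in exercise and 16.5 ± 1.61% in sedentary libraries, SD, n = 3 each; exact two-sided permutation p = 0.4). The difference was -1.07 percentage points, and it turned to 1.06 when each cell was thinned to 2000 UMIs before the gates (exact two-sided permutation p = 0.9). Exercise 5 and sedentary 2, with the highest shares of kept cells, were also the 2 shallowest libraries by median UMIs per kept cell.

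**Figure D4:**
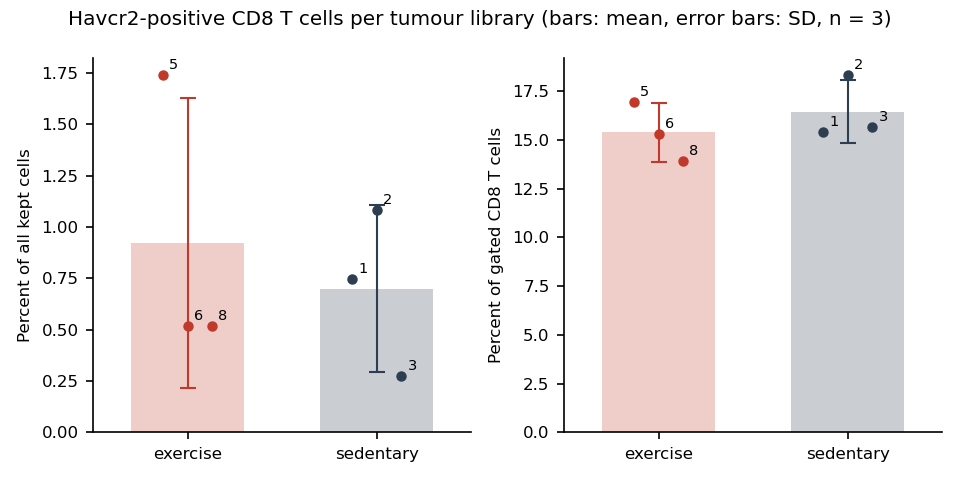
Havcr2+ cells as a percent of all kept cells (left) and of gated CD8 T cells (right) in exercise and sedentary libraries; numbered points are libraries, bars means and error bars SD (n = 3). Exercise 5 stands apart at 1.74% of kept cells, while all 6 libraries lie between 13.9 and 18.3% of CD8 T cells.

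Within Havcr2+ cells, no gene passed the test of exercise against sedentary. Of 2884 genes tested, 0 were called (0%) by edgeR's quasi-likelihood test, and 0 by DESeq2. At an unadjusted p under 0.05 there were 84 by edgeR and 20 by DESeq2. The 5 genes per direction with the smallest p are given as values. Eif5, Nsmaf and Lars were higher in exercise libraries (log2 fold changes 0.77, 1.02 and 1.00), and Malat1 and Plgrkt were lower (-0.37 and -0.80). These genes were picked for the smallest p and did not pass. Xcl1, Ccl4, Ifi208, Ifitm1 and Ctsw are described here and below. Xcl1, the gene of a chemokine that attracts cross-presenting dendritic cells, stood at 68.3, 578.4 and 450.1 CPM in exercise libraries 5, 6 and 8 and at 77.8, 7.40 and 0 CPM in sedentary libraries 1, 2 and 3. Exercise 5 overlapped with sedentary 1. The log2 fold change was 3.25 (SE 0.77, edgeR adjusted p = 1.0). In exercise 6, 75 of 76 Xcl1 UMIs came from 1 cell, and in exercise 8, 70 of 74 did. Xcl1 was called without exercise 5, without both shallowest libraries and with no filter on low counts.

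The chemokine genes Ccl4 and Ccl3 and the cytokine gene Ifng had higher means in exercise libraries but did not pass. Some alternatives did call them: Ccl4 without exercise 8 (edgeR adjusted p = 0.00223) and after thinning to 2000 UMIs (edgeR adjusted p = 0.0312), and Ccl4, Ccl3 and Ifng with no filter on low counts. Ccl4 averaged 2330 ± 1420 CPM in exercise and 827.0 ± 351 CPM in sedentary libraries (SD, n = 3 each; log2 fold change 1.43, SE 0.41), with exercise 8 at 693.4 CPM inside the sedentary range. Ifng averaged 695.7 ± 565 CPM in exercise and 322.4 ± 34.7 CPM in sedentary libraries (log2 fold change 1.05, SE 0.44), and in exercise 6 a single cell held 135 of its 171 UMIs. Ccl3 stood at 935.6, 692.5 and 237.2 CPM in exercise libraries and at 410.8, 262.8 and 39.5 CPM in sedentary ones. The median over the 9 cytokine and chemokine genes tested was 0.80, beside 0.01 for all genes tested, and 6 of the 9 were positive. The shares of Havcr2+ cells with a Ccl4 UMI were 58.5, 38.8 and 50.0% in exercise and 45.8, 39.7 and 42.3% in sedentary libraries, which overlap.

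All 13 type I interferon response genes tested had a negative log2 fold change, with a median of -0.56 and 0 called. The median of all 2884 genes tested was 0.01. The other genes of the list of 22 did not enter the test, and the list as a whole was not tested. Ifi208, an interferon-inducible gene, stood at 47.1, 38.0 and 48.7 CPM in exercise and 99.5, 148.1 and 92.2 CPM in sedentary libraries (log2 fold change -1.39, SE 0.32, edgeR adjusted p = 1.0). Ifitm1 averaged 74.9 ± 38.3 CPM in exercise and 247.5 ± 225 CPM in sedentary libraries (SD, n = 3 each), where 71 of 137 UMIs in sedentary 2 came from 1 cell. The summed level of all 22 genes of the list overlapped, at 3078, 4201 and 4586 CPM in exercise and 4515, 5626 and 4690 CPM in sedentary libraries. Ctsw, which encodes cathepsin W, a protease of cytotoxic lymphocytes, stood at 287.5, 296.8 and 225.0 CPM in exercise and 380.6, 570.0 and 434.7 CPM in sedentary libraries. Ifi208 and Ctsw were picked for the smallest p and did not pass.

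**Figure D5:**
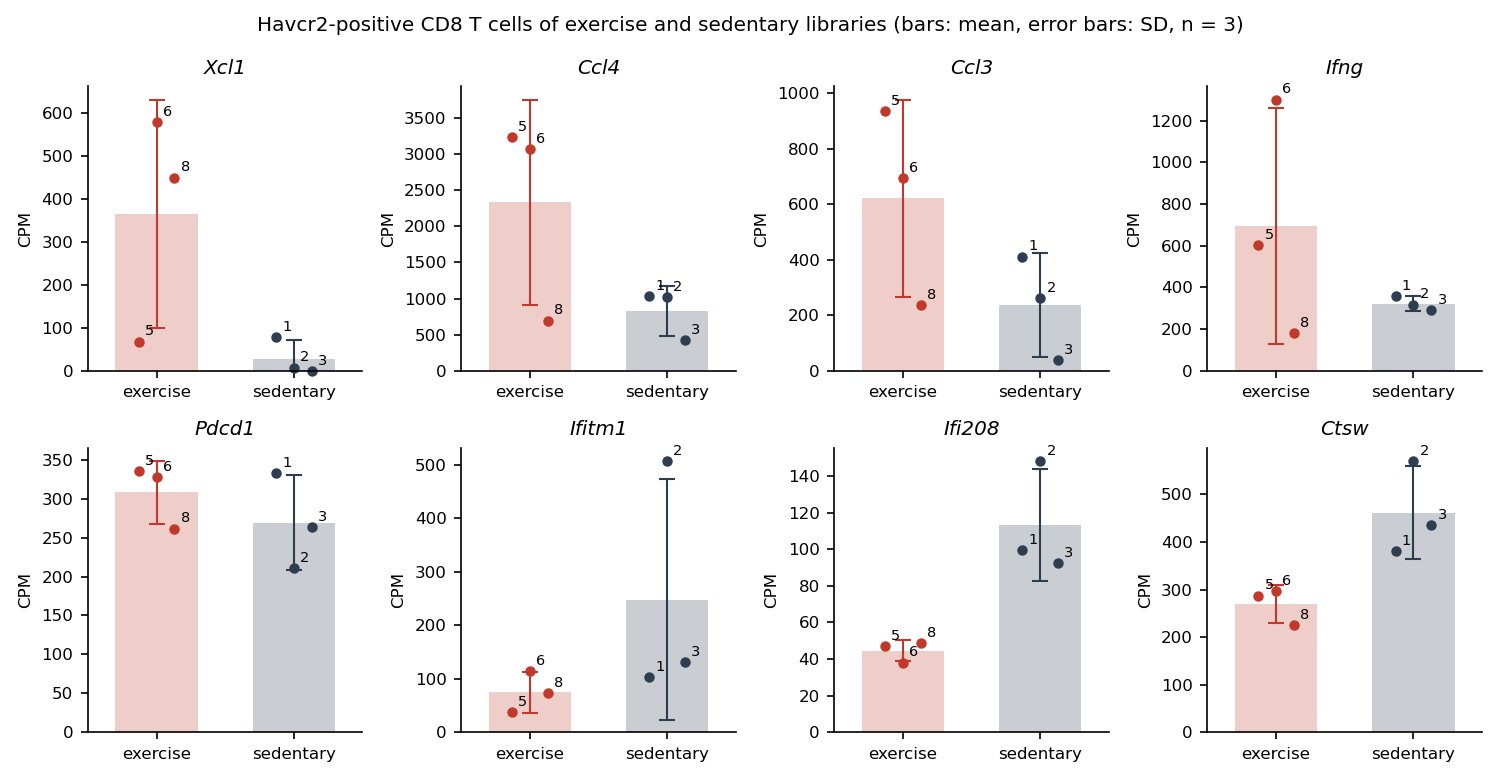
Level of 8 genes in Havcr2+ cells (y axes, CPM) for exercise and sedentary libraries; numbered points are libraries, bars means and error bars SD (n = 3). Xcl1, Ccl4, Ccl3 and Ifng have higher means in exercise with overlapping libraries, and Pdcd1 overlaps. Ifi208 and Ctsw, picked for the smallest p, have lower means in exercise and did not pass.

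For the receptors and effector genes, the libraries of the groups overlapped. Pdcd1 averaged 307.8 ± 40.2 CPM in exercise and 269.2 ± 61.2 CPM in sedentary libraries (SD, n = 3 each; log2 fold change 0.19, SE 0.23). Lag3 differed by -0.03 (SE 0.23), Tox by 0.09 (SE 0.23), Entpd1 by -0.32 (SE 0.29) and Gzmb by -0.07 (SE 0.21). Prf1 stood at 560.4 ± 234 CPM in exercise and 392.8 ± 66.3 CPM in sedentary libraries (log2 fold change 0.49, SE 0.26). Of 10 inhibitory receptor genes tested, 3 were positive and 7 negative, with a median of -0.13, beside 0.01 for all genes tested.

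Whether the exercise effect differed between Havcr2+ and Tcf7+ cells was tested as an interaction. Of 2512 genes, 0 passed (0%) by edgeR and 0 by DESeq2. Unadjusted p-values under 0.05 numbered 94 and 33 by these tools. The smallest adjusted p was 0.0802, for Tnfrsf9, with a difference of log2 fold changes of 2.86 (SE 0.57). Tnfrsf9 stood at 289.9, 365.3 and 328.4 CPM in Havcr2+ cells of exercise libraries and 229.2, 325.7 and 158.1 CPM in those of sedentary libraries. In Tcf7+ cells it stood at 41.0, 52.7 and 28.6 CPM in exercise and 104.1, 502.4 and 103.3 CPM in sedentary libraries. Tnfrsf9 passed with no filter on low counts (2.89, edgeR adjusted p = 0.00251), without sedentary 1 (3.29, edgeR adjusted p = 0.0033), without sedentary 3 (2.98, edgeR adjusted p = 0.00227) and with Havcr2 at 2 or more UMIs (3.41, edgeR adjusted p = 0.00736). It did not pass in the other alternatives, where the difference was 1.13 without cells over 10000 UMIs (edgeR adjusted p = 0.999), 1.00 after thinning (edgeR adjusted p = 0.993) and 2.07 without sedentary 2 (edgeR adjusted p = 0.857), among others.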

How the data were processed

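The authors deposited unnormalized matrices of UMI counts, genes by barcodes, for each of 6 libraries of dissociated tumours, 3 of exercise and 3 of sedentary mice. Per the submitters' processing notes, reads went through Cell Ranger 6.1.2 against mm10 (GRCm38), while the file headers give software version 3.1.0, so which version made the counts is not settled. A barcode was kept as a cell if it had 300 or more genes and 500 or more UMIs, with mitochondrial genes giving no more than 20% of them. No doublet caller was run, and free RNA was not corrected for. The Havcr2+ cells, the comparators and the gene lists were chosen with earlier results of these data known. The comparison with double-negative cells, the ribosomal protein list and the limit of 10000 UMIs were chosen after the data were seen.

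UMIs were summed per library and gate and tested with edgeR 4.0.16 in R 4.3.3 (TMM scaling, low-count filter, quasi-likelihood test, Benjamini-Hochberg adjustment over all genes tested, threshold 0.05). Comparisons between gates had the library as a block, since both gates came from the same library. Exercise was tested against sedentary over 3 libraries each, and shares with an exact permutation test. DESeq2 1.42.0, other filters and left-out libraries were alternatives. The 19 genes of the gates were not tested. Named genes were, per direction, the 10 with the smallest p among called genes with an absolute log2 fold change of at least 1 in the same direction in all 6 libraries, up to 4 called genes of each list, 5 per direction for exercise, and 12 fixed genes. Other genes named were chosen after their values were seen. The edgeR procedure was tested on simulated data. Thinning drew 2000 UMIs per cell and left out shallower cells. Intervals are Wilson 95% intervals, and a count of 0 allows a share of up to 3 counts of the total.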

Additional observations from a re-analysis of the deposited data

How the results depend on the processing

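The share of Havcr2+ cells among kept cells differed by -0.18 to 0.43 percentage points between exercise and sedentary libraries as single libraries were left out, turning negative without exercise 5, and the share among CD8 T cells by 1.06 after thinning to 2000 UMIs. For exercise against sedentary, the number of genes called was 11 with no filter on low counts, 1 without both shallowest libraries, 1 after thinning, and 0 to 1 with single libraries left out. For the difference of exercise effects it was 3 with no filter, 1 with Havcr2 at 2 or more UMIs and 0 to 3 with single libraries left out. Against Tcf7+ cells it was 1131 with no filter, 330 with Havcr2 at 2 or more UMIs, 214 without cells with UMIs of other cell types, 129 after thinning and 165 without cells over 10000 UMIs. Against granzyme C to F cells it was 68 with no filter, 4 without both shallowest libraries, 8 after thinning and 8 to 20 with single libraries left out. Against double-negative cells it was 160 with DESeq2, 507 with no filter, 117 without both shallowest libraries, 179 with Havcr2 at 2 or more UMIs, 138 without cells with UMIs of other cell types, 40 after thinning, 68 without cells over 10000 UMIs and 179 to 320 with single libraries left out. The causes were not tested.

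Without the replicate block of libraries, 528 genes were called against Tcf7+ cells, 3 against granzyme C to F cells and 131 against double-negative cells. No paired analysis was possible because exercise and sedentary libraries share no replicate number.

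Signs turned for small differences. For exercise against sedentary, the log2 fold change without both shallowest libraries was -0.082 for Pdcd1, 0.083 for Lag3, -0.24 for Tox, 0.0155 for Gzmb and -0.079 for Cxcr6. With Havcr2 at 2 or more UMIs it was -0.051 for Tox, 0.43 for Gzmb and -0.23 for Cxcr6. It was -0.017 for Tox without cells with UMIs of other cell types, 0.12 for Gzmb after thinning and -0.0051 for Cxcr6 without cells over 10000 UMIs. With single libraries left out it ran from -0.18 to 0.12 for Lag3, -0.19 to 0.20 for Tox, -0.26 to 0.14 for Gzmb and -0.25 to 0.21 for Cxcr6. Against Tcf7+ cells without cells over 10000 UMIs, Ptpn22 stood at -0.032, Pgam1 at 0.32, Pkm at 0.56 and Ctss at -0.39, and Ctss at -0.12 without cells with UMIs of other cell types. Against granzyme C to F cells, Pdcd1 stood at -0.016 without cells over 10000 UMIs, Lag3 at -0.15 after thinning, and Cxcr6 at 0.19 and Tnfrsf9 at 0.093 with no filter. There Pdcd1 ran from -0.078 to 0.21 and Cxcr6 from -0.20 to 0.082 with single libraries left out. Against double-negative cells without cells over 10000 UMIs, Pgam1 stood at 0.095, Jun at 0.11 and Ier3 at 0.23, and Pgam1 at 0.20 after thinning.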

Other observations

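Dividing CD8 T cells were kept out of the Havcr2+ cells, but 263 of them met every other rule, with a pooled Pdcd1 level of 200.4 CPM, Lag3 of 148.2 CPM and Tox of 272.9 CPM. The 10 cells with both Havcr2 and Tcf7 stood at 62.2 CPM of Pdcd1 and 1430 CPM of Ccl3. They held 80399 UMIs in all. Exercise 6 and exercise 8 gave 2 of these cells each, with medians of 16718.5 and 13594.5 UMIs. A few large cells therefore weigh heavily in the levels of the 10 cells. All these levels are pooled values with no replicate check.

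The T cell receptor beta constant genes varied in their mix between libraries. Among Havcr2+ cells, 5, 0 and 1 cells had Trbc1 without Trbc2 in exercise libraries 5, 6 and 8, against 2, 11 and 2 in sedentary libraries 1, 2 and 3. Trbc2 without Trbc1 was seen in 61, 34 and 30 cells of the exercise libraries and 11, 24 and 11 of the sedentary ones. Both genes were seen in 73, 9 and 17 cells of the exercise libraries and 43, 38 and 11 of the sedentary ones. The Havcr2+ cells numbered 142, 49 and 52 in the exercise libraries and 59, 78 and 26 in the sedentary ones. How reads were divided between these similar genes was not tested.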
